A study of Mus musculus with 26 samples.

Results

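The accessible regions described here were open in cultured mouse pre-B cells with interleukin 7 (IL-7) and had no listed peak in pre-B cells cultured without it. They were found in lists of ATAC-seq peaks, stretches of DNA where a transposase could insert because the chromatin was accessible. The peaks of the 2 libraries with IL-7 and the 2 libraries without it were merged into regions wherever they overlapped by at least 1 bp. This was done on chromosomes 1 to 9 and 13 to 19, outside the stretch from 67 to 71 Mb of chromosome 6 that holds the immunoglobulin kappa locus Igk. A region was kept when both lists with IL-7 held a peak there and neither list without IL-7 did. Of 34154 merged regions 367 met the rule (1.07%), and they are called the IL-7-only regions below. They were thus chosen by the measured presence of peaks in these 4 lists, so their contrast between IL-7 and no IL-7 is a description and carries no test.

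The study is about Igk recombination and late B cell development under CXCR4, a receptor whose ligand is the chemokine CXCL12. The peak lists came from 4 groups of 2 libraries. They were pre-B cells cultured with IL-7, pre-B cells cultured without IL-7 but with CXCL12, small pre-B cells labelled CXCR4-/- that were sorted from mice, and pre-B cells cultured without IL-7 or added CXCL12. The sources used here do not give strain, age, the deleted part of Cxcr4, the time in each medium or whether replicates were separate cultures or animals, so spread between replicates may be technical. Sorted wild-type cells were not represented among the peak lists, so tissue origin and genotype cannot be told apart in the sorted group.

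IL-7 is the cytokine that keeps pro-B and large pre-B cells alive and dividing. Its receptor signals through JAK kinases to the transcription factor STAT5, which raises growth and survival genes and holds back recombination of the Igk locus. Cells that move away from IL-7 stop dividing, become small pre-B cells and rearrange their light chain genes. Accessible stretches of chromatin mark promoters and enhancers at which transcription factors can bind.

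The labels were checked in RNA libraries of the same conditions, which are separate from the ATAC libraries. RNA replicate 2 without IL-7 is labelled spreb, a tag the sorted cells also carry, while its ATAC counterpart is labelled preb. The counts of RNA replicate 2 without IL-7 with CXCL12 are also headed spreb, against preb in its title. Both were matched by medium and replicate number. The B lineage markers Cd79a, a part of the B cell receptor complex, and Pax5, a transcription factor of B cell identity, were detected in each of these RNA libraries. Cish, a feedback inhibitor induced by STAT5, stood at 81.3 and 76.3 CPM (counts scaled to a common library total) with IL-7, at 4.99 and 4.52 CPM without IL-7 with CXCL12, at 5.70 and 6.58 CPM in the sorted cells and at 31.3 and 30.5 CPM without IL-7. The libraries with IL-7 were the highest of the 4 groups and those without IL-7 lay between them and the other 2. Cxcr4 was at 37.8 and 412 CPM in the sorted RNA libraries labelled CXCR4-/-, against 967 and 952 CPM in sorted wild-type RNA libraries, so the second of them goes against its label in part. The sorted ATAC libraries are therefore called as they were labelled.

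All 367 IL-7-only regions consisted of 1 peak from each IL-7 list, and in 349 of them the peaks of the 2 replicates overlapped by at least 50% of each other. They were narrow, weak sites, a trait shared with other regions missing from some of the 4 lists. Their median width was 448 bp, with quartiles of 368 and 532 bp. The 18760 regions that held a peak in all 4 lists had a median of 842 bp, but they merge peaks of more lists, which can widen them. The 1511 regions with a peak in both lists without IL-7 and in neither with it had a median of 474 bp. Regions with a peak in 1 IL-7 list and in no list without IL-7 had 329 bp. The score of a peak is the authors' own value, a −log10 of a p or q value that is at least 5 in every deposited line. The median score of the IL-7-only regions was 7.15 in replicate 1 and 6.89 in replicate 2 with IL-7, while the median of all peaks used in those lists was 16.3 and 18.3. The typical IL-7-only region ranked low, above 18.6% and 14.3% of the peaks of the 2 lists. Above the median of the list stood 10 and 2 of the 367. The 1511 regions listed only without IL-7 were similarly weak, with median scores of 7.66 and 6.74 in replicates 1 and 2 without IL-7.

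**Figure D1:**
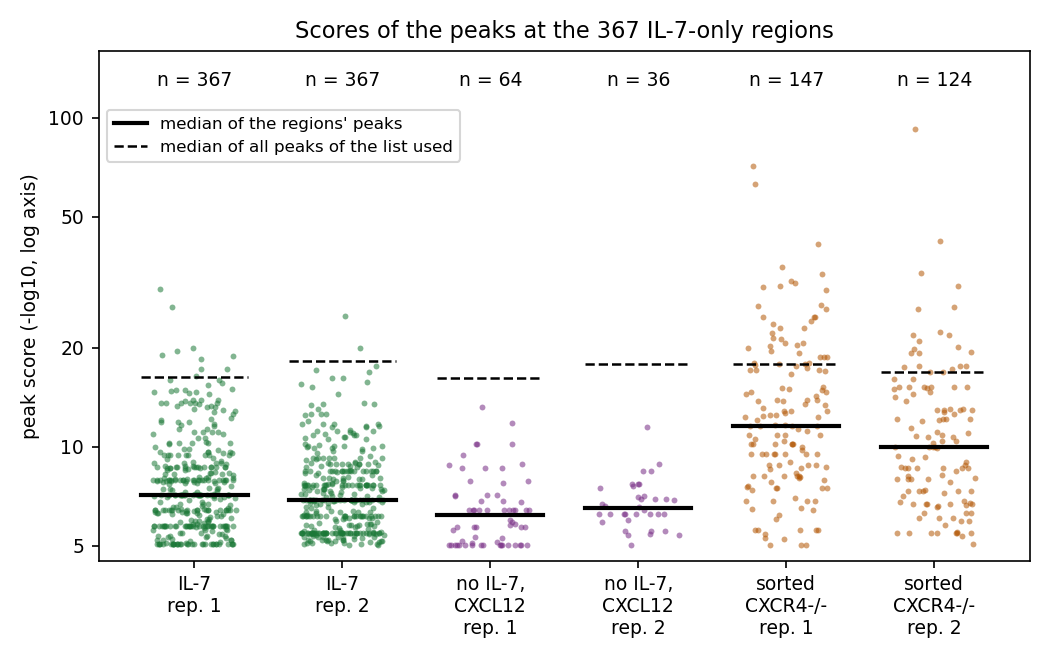
Scores of the peaks at the 367 IL-7-only regions (−log10, log axis) in each list that can hold one, 1 point per region with a peak, for cultures with IL-7, cultures without IL-7 with CXCL12 and sorted cells labelled CXCR4-/-. Solid bars give the median of these peaks and dashed bars the median of all peaks used in the list; the solid bar is below the dashed one in all 6 lists, and the CXCL12 lists hold 64 and 36 points against 147 and 124 in the sorted lists.

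The strongest IL-7-only region was chr2:127880618-127881086 in the mm9 build, 469 bp wide. Its peak scored 30.1 and 25.0 with IL-7 in replicates 1 and 2, above 66.4% and 58.4% of the peaks of those lists. The other 3 groups listed no peak there in any of their 6 libraries, and the nearest peak without IL-7 was 5570 bp away. The next strongest, chr7:128945647-128946638, scored 26.6 and 17.6 with IL-7 and was also among the 5 widest of the set, at 992 bp. It too was absent from the other 6 lists. Its nearest peak without IL-7 lay 67572 bp away. The next was chr1:9656774-9657683, 910 bp wide, with scores of 16.0 and 16.2 and no peak in the other lists. After it came chr3:135267679-135268095, at 13.9 and 16.8, and chr3:80595695-80596282, at 13.6 and 17.1. These 5 regions had peaks in the IL-7 libraries alone among the 8 lists.

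Among the 20 IL-7-only regions with the highest lower score of the 2 replicates, 16 had no peak in any CXCL12 or sorted library. These 20 lay on 12 chromosomes and had a median width of 521 bp. Of the 20, 1 region, chr13:5803778-5804281, was listed in a sorted library, with a score of 6.06 in replicate 2 against 14.6 and 13.4 with IL-7. In the CXCL12 lists 3 of the 20 were found. They were chr5:139430375-139431289 in both replicates, and chr15:99911261-99911954 and chr13:73602577-73602957 in replicate 1.

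The rule stands on a threshold, and many of these regions were close to it. Of the 367 regions, 173 had a lower IL-7 score under 6 and 27 had a score of at least 10 in both IL-7 lists. Just inside, chr2:168210480-168210844 scored 8.61 and 5.01 and chr5:149779112-149779877 scored 6.59 and 5.03 with IL-7. Just outside, chr5:93473590-93474235 scored 5.61 and 5.44 with IL-7 and was kept out by a peak of 5.01 in replicate 1 without IL-7, and chr4:131912166-131912596, at 11.1 and 8.89 with IL-7, by a peak of 5.01 in replicate 2. In all, 1345 regions had a peak in both IL-7 lists and in 1 list without IL-7. Replicate 1 without IL-7, the longest of the culture lists, held that peak in 1209 of them and replicate 2 in 136. Leaving out a list removes a condition of the rule, so the direction of the change in number was set in advance. The number was 1585 and 503 without replicates 1 and 2 of the cultures without IL-7. It was 881 and 1902 without replicates 1 and 2 of the cultures with IL-7.

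**Figure D2:**
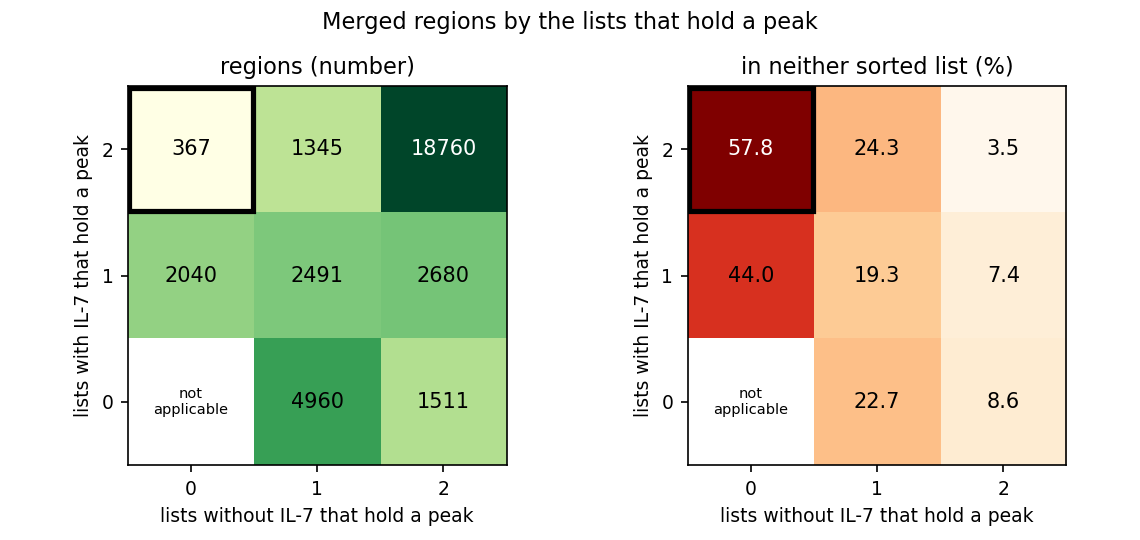
The 34154 merged regions by the number of lists with IL-7 (rows) and without IL-7 (columns) that hold a peak, as the number of regions (left, colour on a log scale) and the percentage with a peak in neither sorted list (right). The outlined cell is the 367 IL-7-only regions, the smallest class, of which 57.8% had a peak in neither sorted list, against 3.53% of regions with a peak in all 4 lists.

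An unlisted peak is not the same as closed chromatin. Peaks carry serial numbers along each chromosome, and some numbers are skipped. A skipped number was taken here to mean a peak removed before deposit, which was inferred from the names alone. At 40 of the 367 regions no number was skipped between the neighbouring peaks in replicate 1 without IL-7, and at 79 in replicate 2. At 18 regions (4.90%) this held in both, so that on this reading no peak had been removed at or around them in either list. A peak that was never called would leave no gap. At the other 349 a weaker peak without IL-7 may have been removed at the region or elsewhere between its neighbours. Of the 20 regions with the highest lower IL-7 score, only 1 was among the 18. The 18 regions resembled the rest in strength, with a median lower IL-7 score of 6.34 against 6.15 in the 349. Of the 18, 14 (77.8%) had a peak in neither sorted list, against 56.7% of the 349 and 11.8% of all merged regions. In neither CXCL12 list were 16 (88.9%) of the 18, against 76.5% of the 349 and 25.9% of all merged regions. With 18 regions these shares are imprecise, and the difference was not tested.

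The CXCL12 and sorted libraries were not used by the rule and ask whether the regions not listed without IL-7 were open elsewhere. Few of them were listed in cells that had CXCL12 in place of IL-7. A peak was present at 64 of the 367 regions (17.4%) in replicate 1 and at 36 (9.81%) in replicate 2 with CXCL12, whereas 70.4% and 60.5% of all merged regions had one there. Both CXCL12 lists held a peak at 16 IL-7-only regions (4.36%), 1 of the 2 at 68 (18.5%) and neither at 283 (77.1%). Over all merged regions these shares were 56.9%, 17.1% and 25.9%. Where a CXCL12 peak was listed it was weak, with a median score of 6.20 in replicate 1 and 6.49 in replicate 2, and 0 of them stood above the median of either list.

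The opposite class, 1511 regions (4.42%) with a peak in both lists without IL-7 and in neither with it, is the natural comparison. Both classes come from the same 4 lists by mirrored rules, but the lists differ in length. Those without IL-7 held 30366 and 25029 peaks used, against 26634 and 22252 with IL-7. In lists of equal length the IL-7-only regions numbered 675, so the sizes of the 2 classes are not directly comparable. In CXCL12 replicates 1 and 2, 17.4% and 9.81% of the IL-7-only regions had a peak, against 57.9% and 28.4% of the opposite class. Regions with a peak in both IL-7 lists and 1 list without IL-7 reached 48.1% and 33.4%. In each CXCL12 library the IL-7-only regions were the lowest of these 3 classes. Regions with a peak in 1 IL-7 list and in no list without IL-7 were lower still, at 12.7% and 5.93%. The share in both CXCL12 lists changed to 17.8% and 10.3% when replicate 1 or 2 without IL-7 was left out, and to 2.16% without replicate 2 with IL-7.

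The IL-7-only regions with a peak in both CXCL12 lists were led by chr5:139430375-139431289, which lay 708 bp from a peak without IL-7. It scored 13.8 and 12.5 with IL-7 and 8.79 and 7.69 with CXCL12, and was listed in neither sorted library. Next was chr13:118724300-118724651, with 8.65 and 7.64 with IL-7 and 6.40 and 6.23 with CXCL12. Further on, chr13:33732559-33732801 had 6.43 and 9.21 with IL-7 and 6.40 and 6.94 with CXCL12. The next, chr5:104501341-104501548, had 6.43 and 6.89 with IL-7 and 5.02 and 8.43 with CXCL12. After it, chr3:145693170-145693693 had 6.24 and 10.5 with IL-7 and 5.17 and 8.85 with CXCL12. Unlike those before it, it was listed in both sorted libraries, at 11.5 and 6.68, and a peak without IL-7 lay 238 bp away. Of the 16 regions in both CXCL12 lists, 10 had a CXCL12 score above the IL-7 score of the same replicate number in at least 1 replicate, but scores from different lists are not on one scale. Of these 16 regions, 7 were also listed in at least 1 sorted library.

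The IL-7-only regions were also poorly represented among the peaks of the sorted cells labelled CXCR4-/-. A peak was present at 147 regions (40.1%) in replicate 1 and at 124 (33.8%) in replicate 2, against 86.9% and 83.1% of all merged regions. Both sorted lists held a peak at 116 (31.6%), 1 of the 2 at 39 (10.6%) and neither at 212 (57.8%), where all merged regions gave 81.9%, 6.32% and 11.8%. The opposite class had sorted peaks at 90.0% and 86.2% of its regions, and those with 1 list without IL-7 at 73.3% and 64.3%. Regions with a peak in 1 IL-7 list and in no list without IL-7 had sorted peaks at 52.7% and 43.9%. In both sorted libraries the IL-7-only regions were the lowest of these 4 classes. The share in neither sorted list changed to 31.2% without replicate 1 of the cultures without IL-7.

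**Figure D3:**
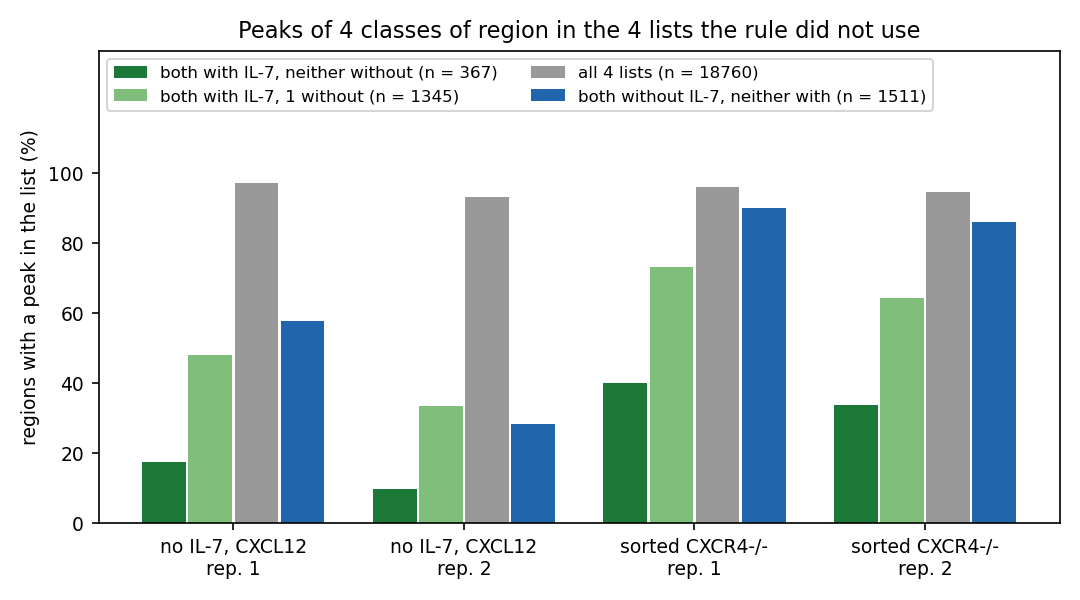
Percentage of regions with a peak in each of the 4 lists that the rule did not use, for the 367 IL-7-only regions, the 1345 regions with both IL-7 lists and 1 list without, the 18760 regions of all 4 lists and the 1511 regions of the opposite class. The IL-7-only bars run from 9.81% to 40.1% and are the lowest in each of the 4 libraries.

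The 2 sorted lists were longer than the culture lists, at 52777 and 45722 peaks used against 21407 to 30366, and a longer list covers more regions of any class. The mean share of IL-7-only regions with a peak was 13.6% ± 5.39 with CXCL12 and 36.9% ± 4.43 in sorted cells (SD, n = 2 libraries each), a difference of -23.3 percentage points. The exact two-sided permutation test over the 4 libraries gave p = 0.333, which is the smallest that 2 against 2 libraries allow. When the sorted lists alone were shortened to their 21407 highest-scoring peaks, 17 (4.63%) and 15 (4.09%) of the IL-7-only regions were still listed. The difference turned to 9.26 points. CXCL12 replicate 1 kept its 25415 peaks, so it was then longer than the sorted lists. In the shortened sorted lists the opposite class kept 46.5% and 46.2% of its regions. The lower presence of the IL-7-only regions in sorted cells than of the opposite class was thus seen at both lengths, while the order of the CXCL12 and sorted shares was not.

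Presence of the IL-7-only regions in sorted cells was lower the stronger their IL-7 peak was. The regions were divided by the lower of their 2 IL-7 scores. Of the 244 regions with a lower score from 5 to under 7, sorted replicates 1 and 2 held a peak at 49.2% and 42.2%. Of the 96 from 7 to under 10 they held one at 26.0% and 19.8%. Of the 26 from 10 to under 20 each library listed 2 (7.69%), and of the 1 region above 20 neither listed a peak. Regions with both IL-7 lists and 1 list without IL-7 had the same order, at 76.0%, 71.9%, 71.4% and, above 20, 41.7% in sorted replicate 1, and at 68.7%, 63.1%, 54.6% and 36.1% in replicate 2. Regions with a peak in 1 IL-7 list and in no list without IL-7, divided by that 1 score, did not have this order. Their shares from 5, from 7 and from 10 were 51.3%, 56.2% and 71.1% in sorted replicate 1. In replicate 2 they were 42.7%, 48.4% and 46.7%, the last class holding 45 regions. The opposite class, divided by the lower score without IL-7, ran the other way in both sorted libraries. Its shares were 87.5% and 82.9%, then 95.6% and 93.4%, then 98.7% and 97.4% in the same 3 score classes. Shortening both sorted lists left the order in place, with 6.15% and 4.92%, then 2.08% and 3.12%, then 0 of 26 IL-7-only regions listed.

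With CXCL12 the score made less difference. In the same 3 classes, replicate 1 held a peak at 19.7%, 12.5% and 15.4% of the IL-7-only regions and replicate 2 at 11.5%, 7.29% and 3.85%. The shares of the opposite class were higher with a higher score, at 50.3%, 73.1% and 92.1% in replicate 1 and 22.2%, 38.7% and 65.8% in replicate 2. At a lower score from 10 to under 20, the IL-7-only regions and the opposite class stood furthest apart in every one of the 4 libraries. That class holds 26 IL-7-only regions and 76 opposite ones, so its shares are the least precise.

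**Figure D4:**
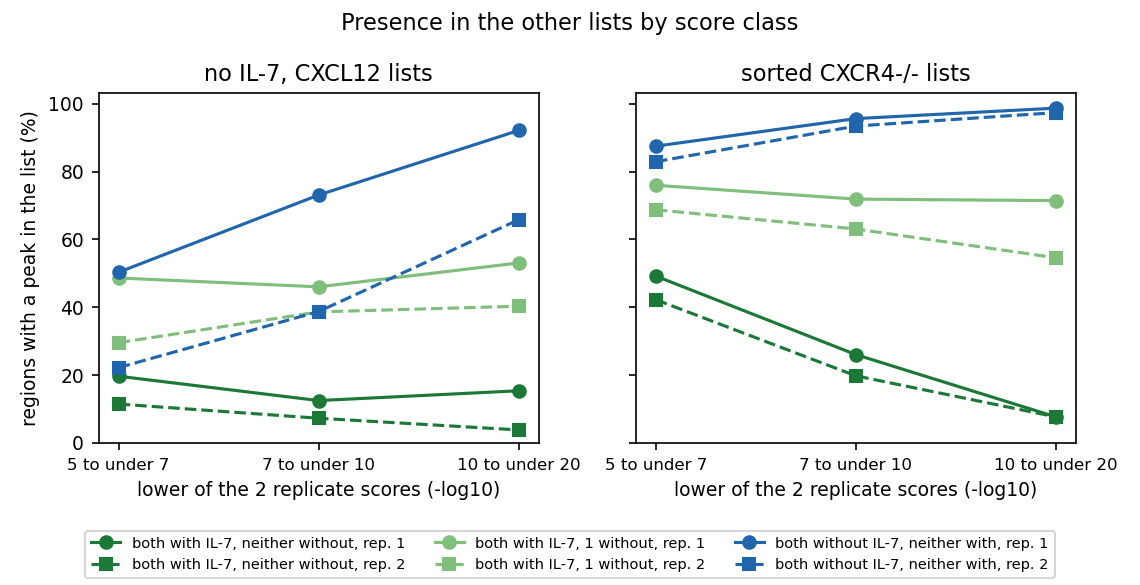
Percentage of regions with a peak in the CXCL12 lists (left) and in the sorted lists (right) by the lower of the 2 replicate scores (−log10) that placed the region in its class, for both replicates of 3 classes of region; the 1 IL-7-only region above a score of 20 is left out. In the sorted lists the IL-7-only lines end at 7.69% in both replicates while those of the opposite class reach 98.7% and 97.4%.

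The IL-7-only regions that sorted cells did list had lower IL-7 scores. The 116 regions in both sorted lists had a median lower IL-7 score of 5.73 and a highest of 10.7, while the 212 in neither had a median of 6.70 and a highest of 25.0. Over the 147 and 124 regions with a peak in sorted replicates 1 and 2, the median sorted score was 11.5 and 10.0, below the medians of those lists at 17.8 and 16.8, and 37 of 147 and 20 of 124 stood above the median of their list. The leading example without CXCL12 peaks, chr17:29218787-29219217, scored 11.3 and 10.7 with IL-7 and 8.99 and 9.19 in sorted cells. At chr6:88681219-88681635 the scores were 9.43 and 9.01 with IL-7 and 14.4 and 19.3 in sorted cells. At chr8:48006391-48007123 the sorted replicates differed, at 62.8 and 6.30, against 9.62 and 16.1 with IL-7, and a peak without IL-7 stood 132 bp away. Regions of this kind were listed with IL-7 and in sorted cells but in neither culture without IL-7.

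**Figure D5:**
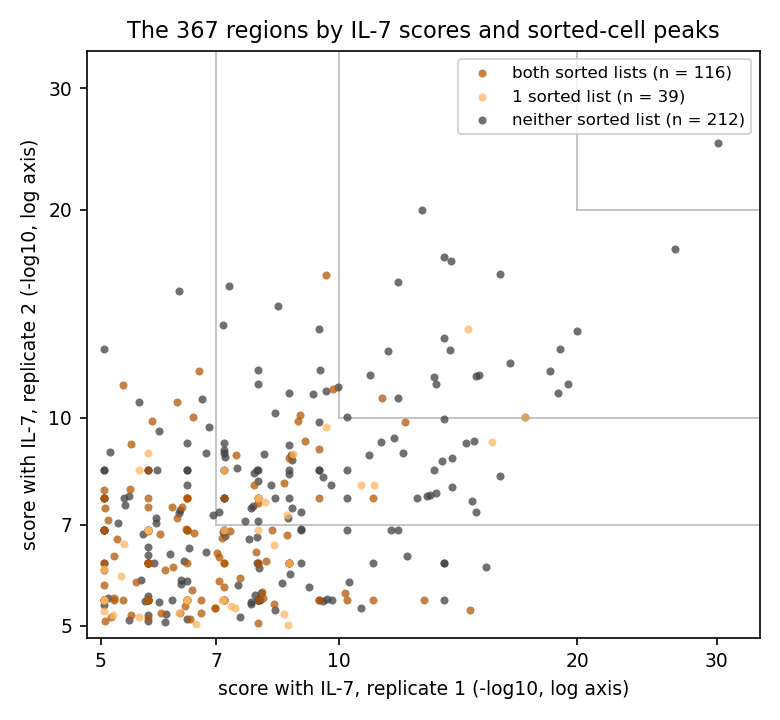
The 367 IL-7-only regions by their score with IL-7 in replicate 1 (x) and replicate 2 (y), both −log10 on log axes, coloured by the number of sorted lists with a peak; grey lines bound the score classes at 7, 10 and 20. The 116 regions in both sorted lists gather at low scores, up to a lower score of 10.7, and the 3 regions with the highest lower score are among the 212 in neither sorted list.

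Taking the 4 unused libraries together, 179 of the 367 regions (48.8%) were listed in none of them, so that their peaks were found in the 2 IL-7 libraries alone. Absence from all 4 unused libraries was found for 7.71% of all merged regions and 5.23% of the opposite class. It reached 13.5% of regions with both IL-7 lists and 1 list without IL-7. Of the 2040 regions with a peak in 1 IL-7 list and in no list without IL-7, 795 (39.0%) were absent from all 4. Another 73 regions (19.9%) were listed in both sorted libraries and neither CXCL12 library, 37 (10.1%) in both sorted libraries and 1 with CXCL12, and 6 (1.63%) in all 4. The 9 regions in both CXCL12 lists and neither sorted list made up 2.45%. The regions in none of the 4 were also the stronger ones, with a median lower IL-7 score of 6.84 against 6.15 over the whole set.

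Cells other than B cells were measured in the RNA libraries, because cultured pre-B cells can carry stromal and myeloid cells. The 10 stromal markers, among them Col1a1 and Sparc, summed to 368 and 696 CPM with IL-7, 2119 and 2126 CPM without IL-7 with CXCL12, 26.1 and 9.95 CPM in sorted cells and 939 and 929 CPM without IL-7. Lum, one of them, was at 0 in all 8 libraries. The 10 myeloid markers summed to 152 and 204 CPM with IL-7, 699 and 711 CPM with CXCL12, 5998 and 1028 CPM in sorted cells and 281 and 286 CPM without IL-7. Both sums differed between groups and were lower with IL-7 than in either of the other cultures. Of the 10 stromal markers 9 were above 0 in every culture, and all 10 myeloid markers were. In the second sorted library Col3a1, Lum and Dcn were at 0. T cell, erythroid and NK cell markers summed to at most 2.93, 15.8 and 10.7 CPM, with Hba-a1 and Hbb-b1 at 0 throughout. The part of such cells in the IL-7-only regions was not tested.

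The regions were scattered over the genome. Every one of the 16 chromosomes held between 11, on chromosome 19, and 36, on chromosome 5, and they made up from 0.697% of the merged regions of chromosome 6 to 1.34% of those of chromosome 13. The nearest other IL-7-only region was at a median distance of 1168 kb. Within 50 kb of each other, 22 regions formed 11 pairs and no longer run was found. The closest pair, chr9:110885020-110885483 and chr9:110888542-110888832, was 3058 bp apart, with scores of 7.15 and 8.41 and of 6.43 and 5.44 with IL-7. The first of these had a peak of 10.9 in sorted replicate 1. The next, chr5:141081346-141081621 and chr5:141085532-141085838, and then chr17:47570254-47570560 and chr17:47576403-47576786, were 3910 and 5842 bp apart. All 4 regions of these other pairs were absent from the CXCL12 and sorted lists.

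The rule kept the IL-7-only regions from overlapping a peak without IL-7, and most of them lay more than 1 kb from one. The nearest peak without IL-7 was at a median of 7.45 kb, with quartiles of 2.26 and 23.7 kb. It lay within 1 kb for 41 regions (11.2%) and within 10 kb for 213 (58.0%). For the opposite class, the nearest peak with IL-7 was at a longer median distance of 9.42 kb. It lay within 1 kb for 14.0% and within 10 kb for 51.4%. The lists without IL-7 were longer, and a longer list places peaks closer to any region, so these distances are not directly comparable. The 41 regions with a near peak had the same median lower IL-7 score as the other 326, at 6.15. They had sorted peaks at 39.0% in both replicates, against 40.2% and 33.1% of the other 326. The shares of both sets were close in replicate 1 and further apart in replicate 2.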

How the data were processed

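The authors deposited 1 ATAC-seq peak list for each library, and each peak has a −log10 score whose underlying value (p or q) is not stated. Per the submitters' processing notes, BWA, Picard, MACS2 and bedtools were used with the build mm9. Versions, roles, the shift of reads, the treatment of duplicates and the read depth are not given in the sources used here, so precision rests on the 2 libraries per group. Of the serial numbers in the peak names 58.6% to 67.7% were deposited. RNA values were deposited as raw read counts of 23762 genes, with STAR and featureCounts named in the same notes, and scaled here to CPM by library totals of 17257914 to 44727809 counts, with no test. The table had 0 columns of no sample.

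Merging and counting were done in Python 3.11.15 with numpy 2.4.6 and pandas 2.3.3, and figures with matplotlib 3.10.9. On simulated lists of well separated peaks the rule recovered 202 of 202 planted regions, which checks the code only. Chromosomes 10 to 12, X and Y were outside the rule. Coordinates are 1-based. No genome or annotation of mm9 was used here, so genes, motifs and sequences of the regions are not given. Regions were named by a fixed rule: the 20 strongest, the 5 widest, the 5 strongest in each pattern of other lists, the 3 tightest pairs and those nearest the threshold, of which the leading ones are printed. The regions, marker lists and comparison classes were chosen with earlier results of these data known. The shares in shortened sorted lists, the skipped numbers, the split at 1 kb from a peak without IL-7 and the replicate block were added after the data were seen. Other alternatives were a 50% reciprocal overlap, a score of at least 10, the peaks above the median score of each list, lists of equal length, merging over 500 bp and each library left out. The result for 1 B lineage marker is not reported here.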

Additional observations from a re-analysis of the deposited data

How the results depend on the processing

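The 367 regions became 218 with scores of at least 10, 98 among the peaks above the median score of each list and 675 in lists of equal length. With 1 library of the rule left out they numbered 503 to 1902, where the rule has 1 condition fewer. Of the 218 and 98, 27 and 1 of the original regions were covered; at those cutoffs the class is filled by regions whose peak without IL-7 is below the cutoff. The share in both CXCL12 lists was 10.8% with a reciprocal overlap of 50% and 10.5% in lists of equal length. It was 2.16% to 17.8% with 1 library of the rule left out. The share in neither CXCL12 list was 69.3% with that overlap, 92.9% above the median score and 63.1% at equal length. It was 49.5% to 82.1% with 1 library of the rule left out. With CXCL12 replicate 1 or 2 left out, the share without a peak in the other list alone was 90.2% and 82.6%. The share in both sorted lists was 22.4% above the median score, 10.4% at equal length and 2.45% with the sorted lists alone shortened. It was 31.6% to 56.0% with 1 library of the rule left out. The share in neither sorted list was 53.2% with scores of at least 10, 69.4% above the median score and 84.3% at equal length. It was 93.7% with the sorted lists alone shortened and 31.2% to 56.6% with 1 library of the rule left out. With sorted replicate 1 or 2 left out, the share without a peak in the other list alone was 66.2% and 59.9%. The difference of CXCL12 minus sorted shares reversed to 10.7 points at equal length and to 9.26 points with the sorted lists alone shortened, where the shorter sorted lists are the alternative's construction, and was -38.8 to -19.5 points with 1 library left out. With a replicate block, pairing the libraries by number, it was -23.3 points (exact sign-flip permutation p = 0.5, the smallest that 2 pairs allow). The cause of the other shifts was not tested. The planned RNA comparison of genes near the regions and its alternatives were not run, since no annotation of the build was used. Peak lists without read depths limit every statement to listed peaks.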

Other observations

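On the chromosomes outside the rule the same pattern of peaks was counted as well. Chromosome 10 held a high share of all deposited peaks in every culture list. The share was 14.4% and 15.4% with IL-7, 14.6% and 16.0% with CXCL12 and 13.6% and 14.8% without IL-7. In sorted cells it was 7.28% and 7.67%. Chromosome 10 gave 114 regions listed in both IL-7 libraries and neither without IL-7, 1.59% of its merged regions. Of these, 104 were in neither sorted list. Chromosomes 11, 12 and X gave 45, 24 and 19 such regions, with 24, 19 and 16 in neither sorted list. In neither CXCL12 list were 47 of the 114 regions of chromosome 10, 35 of the 45 of chromosome 11, 14 of the 24 of chromosome 12 and 10 of the 19 of chromosome X, where the 367 regions of the other chromosomes gave 283 (77.1%). The same shares over all merged regions of chromosomes 10, 11, 12 and X are not given here. Without them it cannot be told whether these counts differ from the background of each chromosome.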
